A study of Rattus norvegicus with 10 samples.

Results

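The regions described here lie around 3 genes of axons and synapses, Notch1, Efna5 and Bace1, under each of which the study lists an intronic position as changed after amygdala stimulation and in another epilepsy model. All regions of the deposited methyl-capture table that overlapped an interval of 150 kb either side of these positions were taken, which gave 429 of the 574544 regions of the table: 139 around Notch1 on chromosome 3, 174 around Efna5 on chromosome 9 and 116 around Bace1 on chromosome 8 of the rat genome RN4. Male Sprague-Dawley rats had electrodes implanted in the left lateral nucleus of the amygdala. SE rats received pulses of 400 µA for 30 min, or somewhat longer where needed, which evoked status epilepticus, a seizure that does not end by itself. It was stopped with diazepam, which the methods do not describe for control rats, so stimulation and drug cannot be told apart here. SE rats had spontaneous seizures later, whereas control rats carried the electrodes without stimulation. Per the methods, DNA of the CA3 and dentate gyrus fields of the left hippocampus was taken 3 months later. The labels give the tissue as dorsal hippocampus. The DNA was enriched for methylated fragments by a methyl-CpG binding protein and sequenced, with 1 library per rat. Control rats 1, 3, 4 and 5 were compared with SE rats 6, 8, 9 and 10, and control rat 2 and SE rat 7, which the labels mark as discarded without a reason, entered only where stated.

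Notch1 is a receptor that is cut after a ligand of a neighbouring cell binds it, and its freed inner part moves to the nucleus and turns on target genes. It helps to maintain neural stem cells of the dentate gyrus and also acts in mature neurons. Efna5 encodes ephrin-A5, a protein anchored to the cell surface that binds Eph receptors, guides growing axons by repulsion and shapes dendritic spines. Bace1 encodes the beta-secretase, the protease that makes the first cut of the amyloid precursor protein and also cuts neuregulin and other membrane proteins of the axon. DNA methylation inside a gene body is common in transcribed genes and is read differently from methylation at a promoter.

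A tag count measures how much methylated DNA was captured from a region, whereas single cytosines were not resolved. Values are normalized counts, which are tags of the region per 1000000 tags in all tested regions (CPM) with library totals scaled by TMM, the trimmed mean of M-values. Values of control rat 2 and SE rat 7 come from the scaling over all 10 libraries. They are therefore not on quite the same scale as those of the 8 rats printed beside them. The tissue held several cell types, so that a change in methylation per cell and a change in the share of a cell type cannot be told apart, and the tissue label could not be checked against expression markers in these counts. The 8 libraries held between 5499370 and 7179519 tags, control rat 2 held 7154696 and SE rat 7 held 14655629. The table holds only regions in which some pair of libraries had been called different. Of the 429 regions, 243 reached the count filter of 70 tags summed over the 8 libraries and were tested, and 186 did not. The median mean count of all tested regions of the table was 12.1 tags per library, so that counting error weighs heavily on a single region.

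At the listed Notch1 position the table held 1 region, chr3:4653315-4655212, with 30 to 38 tags per control rat and 44 to 56 tags per SE rat. The normalized counts of control rats 1, 3, 4 and 5 were 8.70, 7.42, 9.31 and 7.86 CPM, and those of SE rats 6, 8, 9 and 10 were 11.1, 10.56, 13.0 and 10.7 CPM. Every SE rat lay above every control rat. The means were 8.32 ± 0.850 CPM for control and 11.4 ± 1.148 CPM (SD, n = 4 each) for SE, which gave a log2 fold change of 0.45 ± 0.20 (SE of the fit). The region was also the one with the highest mean normalized count of the Notch1 window, a count not divided by length, and the longest at 1897 bp. The order did not hold with the discarded libraries, because control rat 2 reached 19.6 CPM there and SE rat 7 reached 7.98 CPM, and the log2 fold change over all 10 libraries was -0.0011.

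At the listed Efna5 position the direction was the opposite. The region chr9:101471518-101472051 held 11 to 21 tags per control rat and 5 to 12 tags per SE rat. Control rats 1, 3, 4 and 5 had 2.66, 5.19, 3.62 and 4.34 CPM, and SE rats 6, 8, 9 and 10 had 1.16, 2.64, 1.69 and 2.29 CPM. Every SE rat lay below every control rat, although control rat 1 and SE rat 8 both held 11 tags and were apart only after scaling. The means were 3.95 ± 1.08 CPM and 1.95 ± 0.656 CPM (SD, n = 4 each), a log2 fold change of -1.01 ± 0.35 (SE of the fit). Control rat 2 had 2.94 CPM and SE rat 7 had 2.39 CPM, and over all 10 libraries the log2 fold change was -0.87.

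The Bace1 position fell in the region chr8:48758435-48758970, with 6 to 9 tags per control rat and 11 to 19 tags per SE rat. Control rats 1, 3, 4 and 5 had 1.69, 2.22, 1.55 and 1.45 CPM, and SE rats 6, 8, 9 and 10 had 4.39, 3.36, 3.14 and 2.10 CPM. The groups overlapped, since SE rat 10 lay below control rat 3. The means were 1.73 ± 0.345 CPM and 3.25 ± 0.940 CPM (SD, n = 4 each), a log2 fold change of 0.89 ± 0.38 (SE of the fit), and the log2 fold change over all 10 libraries was 0.77. The position is listed under Bace1, under Dscaml1, which encodes a cell adhesion molecule of neurons, and under an unnamed predicted protein. In the later assembly GRCr8, RefSeq places Dscaml1 and Bace1 apart with 1 protein-coding gene, Cep164, between them, so which of these genes holds the region was not settled here. The Bace1 values therefore belong to the listed position and not with certainty to the gene.

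These 3 positions had been chosen by the study for their difference between these same groups, so no test is given for them.

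**Figure D1:**
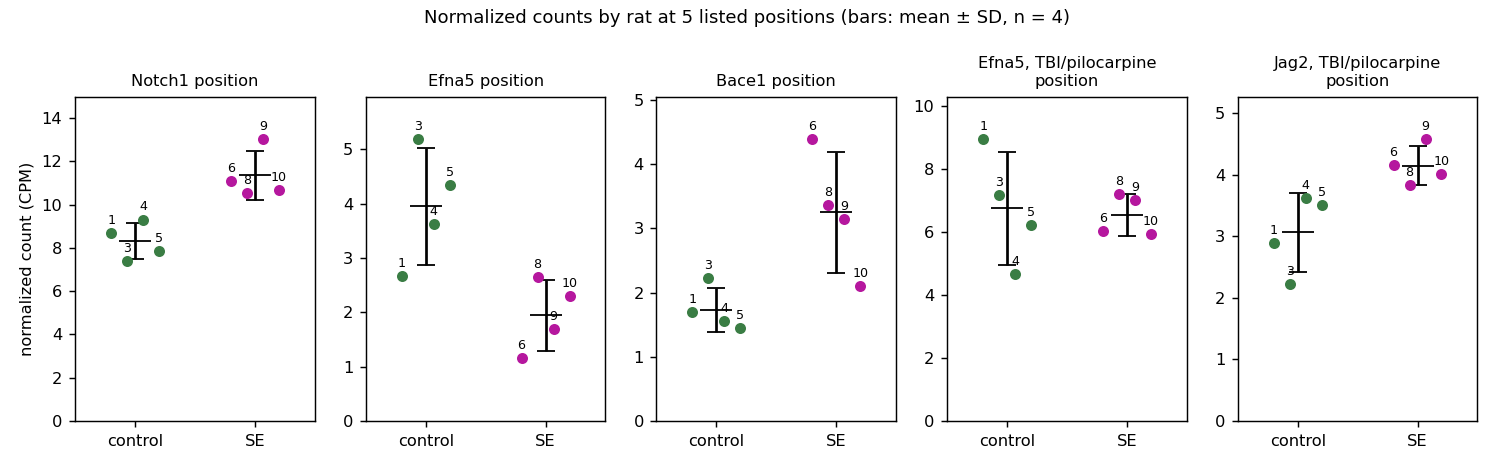
Normalized counts (CPM, linear axes from 0) of each rat at the listed Notch1, Efna5 and Bace1 positions and at the Efna5 and Jag2 positions listed for other models; green points are control rats, magenta points SE rats, numbers are rat numbers, and bars are mean ± SD (n = 4). The 4 SE rats lie above the control rats at the Notch1 and Jag2 positions and below them at the Efna5 position, and the groups overlap in the other panels.

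A further pair of positions, one in Efna5 and one in Jag2, had been listed for the traumatic brain injury (TBI) and pilocarpine models and so had not been chosen on the rats used here. The Efna5 region there, chr9:101417771-101419247, lay 53.3 kb before the other Efna5 position. Control rats 1, 3, 4 and 5 had 8.95, 7.17, 4.66 and 6.20 CPM, and SE rats 6, 8, 9 and 10 had 6.01, 7.20, 7.0 and 5.92 CPM. All SE values lay within the range of the control values. The log2 fold change was -0.05 ± 0.23, with adjusted p = 0.985 in the quasi-likelihood test of edgeR, so no difference was detectable, and over all 10 libraries it was 0.22.

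Jag2 encodes a ligand of the Notch receptors. The only region of the table that overlapped the listed Jag2 position was chr6:137927781-137928578, which covered its start and the smaller part of it. This region had 2.90, 2.22, 3.62 and 3.52 CPM in control rats 1, 3, 4 and 5 and 4.16, 3.84, 4.59 and 4.01 CPM in SE rats 6, 8, 9 and 10. Every SE rat lay above every control rat, also with rats 2 and 7 included, at 3.53 and 4.52 CPM. The means were 3.07 ± 0.645 CPM and 4.15 ± 0.319 CPM (SD, n = 4 each). The log2 fold change of 0.43 ± 0.30 did not pass the test of edgeR (adjusted p = 0.83).

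The question for the surroundings was whether the difference at a listed position was shared by the captured regions next to it. The regions at the positions were left out of the counts and medians of flanking regions. Of the 240 flanking regions tested, 1 had an unadjusted p below 0.01, the threshold of the study, against 1.65% of all tested regions of the table, and 10 had p below 0.05, against 6.9%. The groups did not overlap in 7 of the 240, against 3.63% of all tested regions. No flanking region had an adjusted p below 0.05, and the smallest adjusted p of the windows were 0.608 for Notch1, 0.708 for Efna5 and 0.599 for Bace1. Over the whole matrix, 18 of 291987 tested regions had an adjusted p below 0.05. The shares among the flanking regions, 0.417%, 4.17% and 2.92%, all lay below those of the table. The first share depends closely on the threshold, since the smallest p near Notch1 were 0.0105 and 0.0106 by edgeR.

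**Figure D2:**
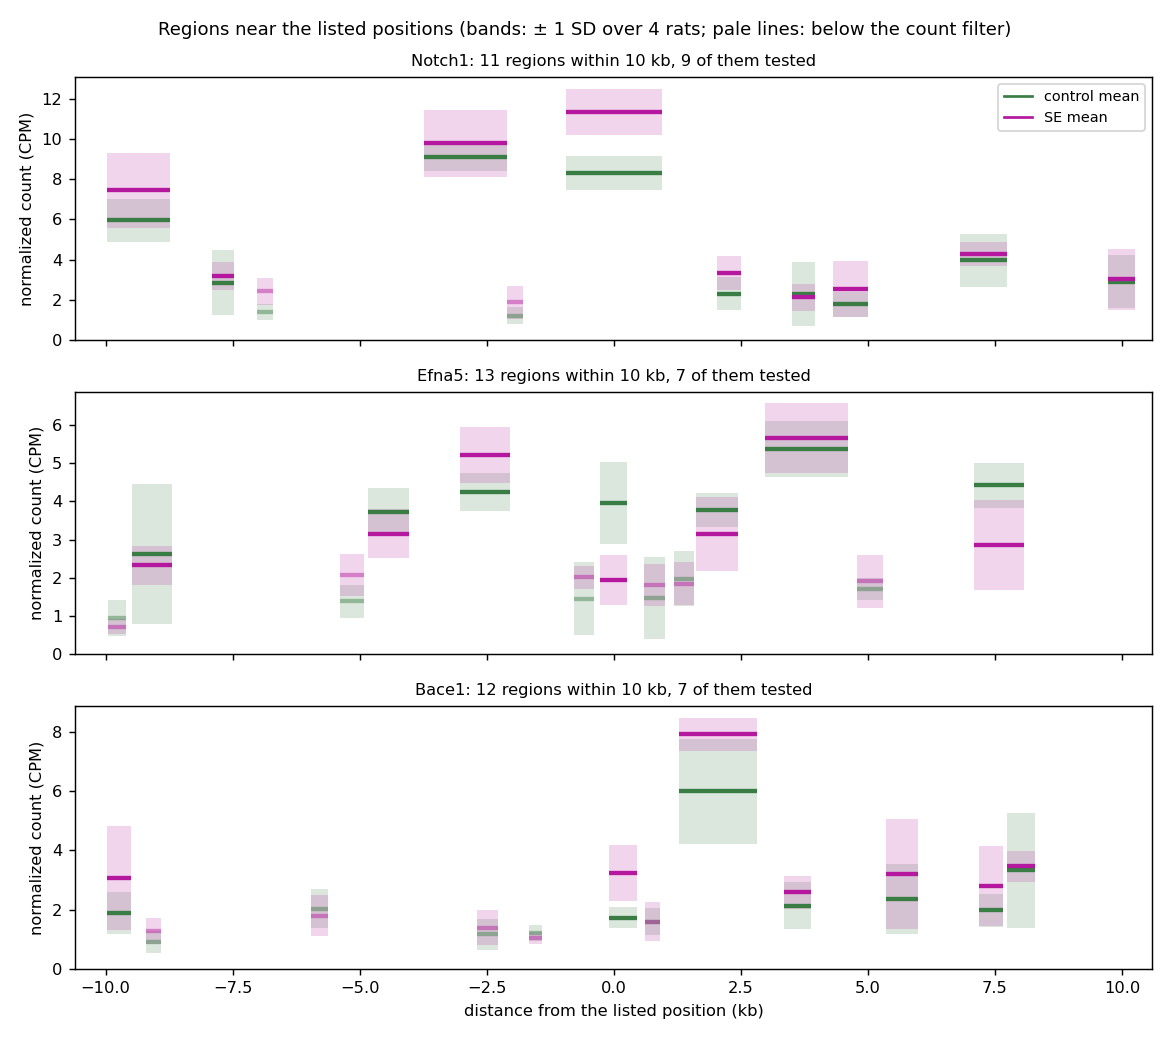
Mean normalized count (CPM, linear axes from 0) of control (green) and SE rats (magenta) in each region within 10 kb of the listed positions against distance in kb; bands are ± 1 SD over 4 rats and pale lines are regions below the count filter. The bands are apart at the Notch1 (8.32 and 11.4 CPM), Efna5 (3.95 and 1.95 CPM) and Bace1 positions (1.73 and 3.25 CPM), and overlap in most neighbouring regions. The positions had been chosen by the study for their difference between these rats, and the neighbours had not.

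Around Notch1, 8 flanking regions within 10 kb were tested, and 7 of them had a log2 fold change above 0, with a median of 0.13, a lowest value of -0.11 and a highest of 0.57. None of the 8 had p below 0.05 by edgeR, and 0 of the 78 tested flanking regions of the window had p below 0.01. Over all 10 libraries 3 of these 8 regions were above 0. The region just before the position, chr3:4650522-4652160, was similar in level per length, at 5.77 CPM per kb against 5.19 CPM per kb at the position. It had 9.43, 9.39, 9.57 and 8.07 CPM in control rats 1, 3, 4 and 5 and 11.8, 8.40, 8.45 and 10.5 CPM in SE rats 6, 8, 9 and 10. There the groups overlapped, and the log2 fold change was 0.11 ± 0.20 (edgeR, adjusted p = 0.950). On the other side the closest region, chr3:4656289-4656770, had means of 2.30 ± 0.827 CPM in control and 3.34 ± 0.841 CPM in SE rats, with a log2 fold change of 0.57 ± 0.35 and adjusted p = 0.787. The next one, chr3:4657762-4658224, ranged from 0.725 to 4.2 CPM in control and from 1.21 to 2.78 CPM in SE rats, and its log2 fold change was -0.11 ± 0.40. A short region between position and neighbour, chr3:4652169-4652477, held 4 to 13 tags per rat and was below the filter.

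Further out in the Notch1 window, 5 of the 78 tested flanking regions had p below 0.05, all with more tags in SE rats, and in 4 of the 78 every SE rat lay above every control rat. Of all tested regions of the table, 6.9% had p below 0.05 by edgeR and 3.63% had groups that did not overlap, counting both directions. These counts are therefore not read as a trait of the Notch1 window. The smallest p belonged to chr3:4509899-4510611, 144.0 kb before the position. It had 2.66, 1.73, 3.11 and 2.28 CPM in control rats 1, 3, 4 and 5 and 5.32, 3.12, 3.38 and 5.54 CPM in SE rats 6, 8, 9 and 10. All SE rats lay above the controls, with the smallest gap between control rat 4 and SE rat 8. The log2 fold change was 0.84 ± 0.32 (edgeR, unadjusted p = 0.0105, adjusted p = 0.608). The second, chr3:4596790-4597569, had 2.66, 3.46, 3.62 and 1.24 CPM in the control rats and 3.93, 4.32, 6.76 and 4.2 CPM in the SE rats. The groups did not overlap, and SE rat 9 was far above the other SE rats. The log2 fold change was 0.82 ± 0.32 (edgeR, unadjusted p = 0.0106, adjusted p = 0.608). Both unadjusted p lay just above 0.01. They fell just below it in edgeR with library totals (0.00936 and 0.00941) and were higher by DESeq2 (0.0298 and 0.0304). With rats 2 and 7 included the log2 fold changes of these regions were 0.19 and 0.23. Among regions with fewer tags in SE rats, the smallest p were found at chr3:4790714-4791286, with a log2 fold change of -0.49 ± 0.35 (adjusted p = 0.834), and at chr3:4589096-4589889, with -0.42 ± 0.32 (adjusted p = 0.842), and the groups overlapped in both.

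Outside the naming rule, the other pair of Notch1 regions in which every SE rat lay above every control rat were chr3:4638485-4639860, 15.1 kb before the position, and chr3:4735655-4736375, 81.8 kb after it. The former had 4.59, 5.19, 4.14 and 4.14 CPM in control rats 1, 3, 4 and 5 and 6.24, 6.72, 5.31 and 5.92 CPM in SE rats 6, 8, 9 and 10. Its lowest SE value, in rat 9, lay close to the highest control value, in rat 3, and the log2 fold change was 0.42 ± 0.25 (edgeR, adjusted p = 0.779). The latter had a log2 fold change of 0.90 ± 0.40 (adjusted p = 0.674), the highest of the window. Over all 10 libraries these were 0.67 and 1.06. The remaining regions with p below 0.05 were chr3:4695281-4695693, with a log2 fold change of 0.87 ± 0.39, and chr3:4737725-4738728, with 0.66 ± 0.30, and the groups overlapped in both.

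Around Efna5 the neighbours did not share the size of the difference at the position. The position had been chosen for its difference between these same rats, so smaller differences in unchosen neighbours are to be expected from that choice alone. Of 6 tested flanking regions within 10 kb, 2 had a log2 fold change above 0 and 4 below, with a median of -0.20, and over all 10 libraries 3 of these 6 regions were above 0. The region 2.54 kb before the position, chr9:101468752-101469740, had 4.84, 4.2, 3.62 and 4.34 CPM in control rats 1, 3, 4 and 5 and 4.63, 4.80, 6.28 and 5.16 CPM in SE rats 6, 8, 9 and 10. The means thus differed in the other direction, though the groups overlapped and the log2 fold change of 0.29 ± 0.26 did not pass the test (edgeR, adjusted p = 0.878). The closest regions on both sides, chr9:101470998-101471386 and chr9:101472387-101472784, held 2 to 11 tags per rat and were not tested. Their means were 1.45 ± 0.953 CPM in control against 2.01 ± 0.310 CPM in SE rats before the position and 1.47 ± 1.07 CPM against 1.81 ± 0.559 CPM after it. A further untested region, chr9:101472974-101473362, had 1.98 ± 0.714 CPM and 1.85 ± 0.556 CPM.

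One region near Efna5, chr9:101478877-101479850, 7.58 kb after the position, had the smallest p among the flanking regions with fewer tags in SE rats. Control rats 1, 3, 4 and 5 had 4.35, 4.94, 3.62 and 4.76 CPM, and SE rats 6, 8, 9 and 10 had 2.31, 4.56, 2.66 and 1.91 CPM. SE rat 8 lay among the controls and the other SE rats below them. The log2 fold change was -0.65 ± 0.31 (edgeR, adjusted p = 0.708), and over all 10 libraries it was -0.25. No flanking region of the Efna5 window had p below 0.01 by edgeR, and 2 of 91 had p below 0.05, against 1.65% and 6.9% of all tested regions.

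The other of these 2 regions, chr9:101601067-101601967, 129.7 kb after the position, had more tags in SE rats. Its values were 2.90, 3.71, 3.36 and 2.90 CPM in control rats 1, 3, 4 and 5 and 5.32, 4.32, 4.10 and 5.54 CPM in SE rats 6, 8, 9 and 10. It was the only tested flanking region near Efna5 in which the groups did not overlap, and the log2 fold change was 0.59 ± 0.29 (edgeR, adjusted p = 0.713). With rats 2 and 7, at 1.57 and 6.03 CPM, the log2 fold change was 0.82 and the groups still did not overlap. A region somewhat closer, chr9:101597060-101597717, had 1.84 ± 0.726 CPM in control and 3.14 ± 0.973 CPM in SE rats and a log2 fold change of 0.73 ± 0.38, the highest of the window (adjusted p = 0.732). The region with the highest mean normalized count, chr9:101413103-101415009, was also the longest of the window at 1906 bp. It had 9.14 ± 0.854 CPM in control and 7.74 ± 1.10 CPM in SE rats. Its log2 fold change of -0.25 ± 0.21 did not pass the test of edgeR (adjusted p = 0.856).

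Around the Bace1 position all 6 tested flanking regions within 10 kb had a log2 fold change above 0, with a median of 0.43 and a range from 0.03 to 0.71, while none had p below 0.05 by edgeR. Over all 10 libraries 4 of these 6 regions were above 0. The nearest tested one, chr8:48759795-48761331, lay 2.04 kb after the position. It had 5.08, 8.40, 6.21 and 4.34 CPM in control rats 1, 3, 4 and 5 and 8.56, 8.16, 7.73 and 7.26 CPM in SE rats 6, 8, 9 and 10. Control rat 3 lay among the SE rats and the other controls below them, and the log2 fold change was 0.41 ± 0.23 (adjusted p = 0.757). The 3 other neighbours, chr8:48755835-48756250, chr8:48756852-48757106 and chr8:48759130-48759428, held 2 to 10 tags per rat and were not tested. Their control means were 1.17, 1.20 and 1.60 CPM and their SE means 1.4, 1.05 and 1.59 CPM.

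The only flanking region of the 3 windows with p below 0.01 lay 110.8 kb before the Bace1 position, at chr8:48647297-48648049. Control rats 1, 3, 4 and 5 had 1.93, 2.22, 3.11 and 1.45 CPM, and SE rats 6, 8, 9 and 10 had 3.93, 3.84, 2.90 and 5.35 CPM. The groups overlapped, with SE rat 9 below control rat 4. The means were 2.18 ± 0.696 CPM and 4.0 ± 1.01 CPM (SD, n = 4 each), and the log2 fold change was 0.91 ± 0.34 (edgeR, adjusted p = 0.599). The p was above 0.01 by the exact test of edgeR (0.0127), by DESeq2 (0.0258), over all 10 libraries (0.0681) and when any of control rats 1, 3 and 5 or SE rats 6, 8 and 10 was left out, with a highest p of 0.0607 without SE rat 10.

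Across all tested regions of the table the groups did not overlap in 3.63%, counting both directions. In 2 of the 71 tested flanking regions near Bace1 every SE rat lay below every control rat, and in none above. One of them, chr8:48815732-48816351, 57.5 kb after the position, had 3.63, 4.2, 2.59 and 2.48 CPM in control rats 1, 3, 4 and 5 and 2.31, 1.68, 2.17 and 2.10 CPM in SE rats 6, 8, 9 and 10. Its log2 fold change was -0.63 ± 0.36 (edgeR, adjusted p = 0.765) and -0.04 over all 10 libraries. The other, chr8:48789746-48790324, outside the naming rule, had a log2 fold change of -0.43 ± 0.37 (adjusted p = 0.870). The remaining regions with p below 0.05, also outside the rule, were chr8:48677655-48678583 and chr8:48794021-48794454, with log2 fold changes of 0.60 ± 0.29 and 0.83 ± 0.40. A region with fewer tags in SE rats, chr8:48714574-48715065, had 2.75 ± 0.629 CPM in control and 1.75 ± 0.536 CPM in SE rats (adjusted p = 0.795). The region with the highest mean normalized count of all members, chr8:48741626-48745921, was also the longest at 4295 bp and held 64 to 109 tags per rat. Its means of 18.4 ± 2.19 CPM and 20.3 ± 3.31 CPM gave a log2 fold change of 0.13 ± 0.16 (adjusted p = 0.918).

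**Figure D3:**
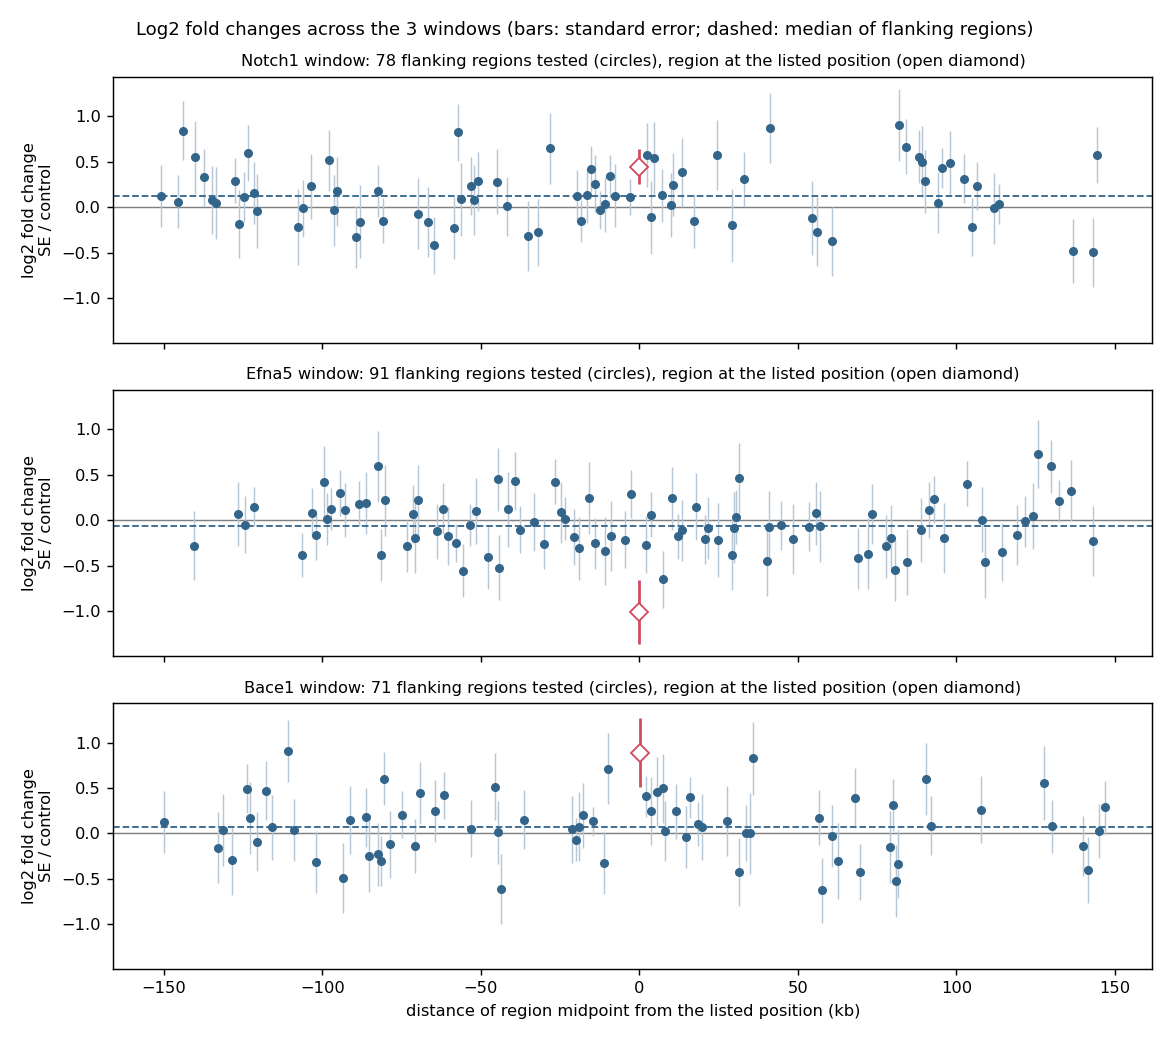
Log2 fold change (SE over control) of each tested region in the Notch1, Efna5 and Bace1 windows against distance from the listed position in kb; circles are flanking regions, open diamonds the regions at the positions, vertical bars standard errors of the fit and dashed lines the medians of the flanking regions. The Notch1 (0.45) and Bace1 (0.89) diamonds lie among the higher circles, and the Efna5 diamond (-1.01) lies below all circles of its window. The diamonds had been chosen by the study for their difference between these rats, and the circles had not.

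Over whole windows the median of the flanking regions had the sign of the listed position. The median log2 fold change was 0.12 over 78 regions near Notch1, with 52 above 0 and 26 below. It was -0.07 over 91 regions near Efna5, with 40 above 0 and 51 below, and 0.07 over 71 regions near Bace1, with 47 above 0 and 24 below. The median over all tested regions of the table was 0.0024, with 50.3% above 0. By distance, the Efna5 median went from -0.20 within 10 kb to -0.09 between 10 and 50 kb and -0.0024 beyond 50 kb, where 27 regions were above and 27 below 0. The Bace1 median went from 0.43 to 0.07 and 0.05 over the same distances, and the Notch1 median stayed at 0.13, 0.13 and 0.09. The medians within 10 kb rest on only 6 regions near Efna5, 6 near Bace1 and 8 near Notch1. The standard error of a single region had a median of 0.33 to 0.35 in the windows, and a change with distance was not tested. With rats 2 and 7 included, the medians over the regions tested in that fit were -0.05 near Notch1, 0.16 near Efna5 and -0.05 near Bace1, the opposite direction in each window.

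Summed over all 139 regions, that at the position included, the Notch1 window held 378.8, 331.7, 339.2 and 331.9 CPM in control rats 1, 3, 4 and 5 and 390.3, 391.8, 369.1 and 409.9 CPM in SE rats 6, 8, 9 and 10. Only SE rat 9 lay below a control rat, rat 1, and the mean sums were 345.4 ± 22.6 CPM and 390.3 ± 16.7 CPM (SD, n = 4 each), a ratio of 1.13. The 174 Efna5 regions summed to 474.8, 426.6, 478.9 and 443.6 CPM in the control rats and 436.3, 450.8, 464.4 and 429.4 CPM in the SE rats. The groups overlapped throughout, with a ratio of 0.977. The 116 Bace1 regions summed to 307.7, 300.5, 289.2 and 287.0 CPM in the control rats and 311.9, 322.9, 317.2 and 340.4 CPM in the SE rats. Here every SE rat lay above every control rat, with mean sums of 296.1 ± 9.74 CPM and 323.1 ± 12.4 CPM (SD, n = 4 each), a ratio of 1.09. Without the regions at the positions, which were chosen for their difference, the ratios were 1.12 for Notch1, 0.981 for Efna5 and 1.09 for Bace1. The Bace1 flanks alone summed to 285.6 to 306.1 CPM in control and 307.5 to 338.3 CPM in SE rats, so that the groups were still apart there. Sums over other stretches of the table were not taken, so this separation is not read as particular to the Bace1 window. With rats 2 and 7 included the ratios over all regions were 1.016 for Notch1, 1.103 for Efna5 and 1.031 for Bace1, and control rat 2, at 347.6 CPM, lay among the SE rats for Bace1.

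**Figure D4:**
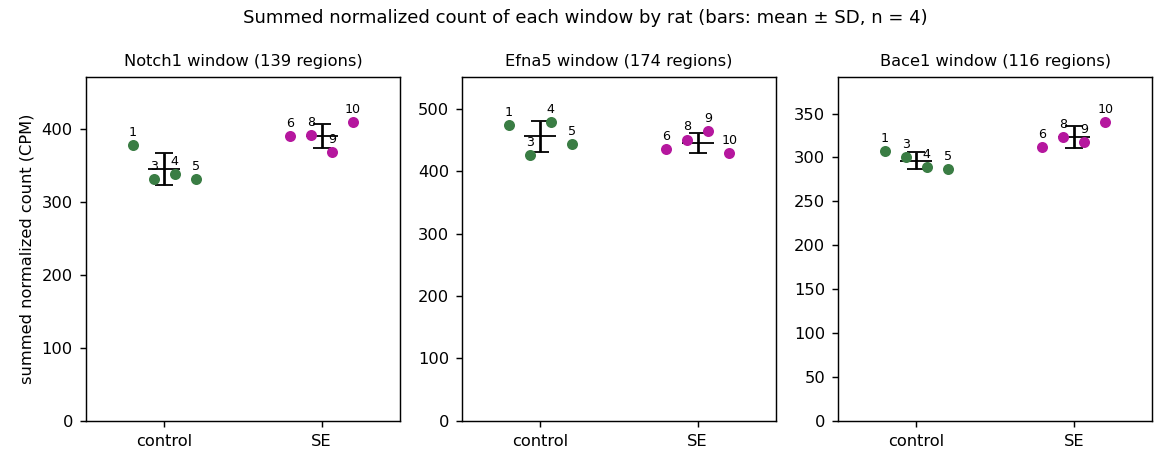
Summed normalized count (CPM, linear axes from 0) of all regions of the Notch1, Efna5 and Bace1 windows in each rat; green points are control rats, magenta points SE rats, numbers are rat numbers, and bars are mean ± SD (n = 4). The groups are apart for Bace1 (287.0 to 307.7 against 311.9 to 340.4 CPM), touch for Notch1 and overlap for Efna5.

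The windows had in common that they lie in stretches dense in captured regions, which the choice of positions did not use. Density is given as a count of how many other regions lie up to 50 kb to either side, and its median was 45 in the Notch1, 57 in the Efna5 and 42 in the Bace1 window, against 32 over the whole table. Log2 fold changes moved with density across the table. Their median went from -0.26 in the lowest of 10 density classes (0 to 12 regions) to 0.07 at 42 to 46 and 0.09 at 52 to 81, where 61.5% were above 0. The Bace1 median of 0.07 was the same as that of all regions of its density and the Notch1 median of 0.12 was above it, whereas the Efna5 median of -0.07 was below 0 where the table's was above. Fitted with offsets that removed the trend on density and count in each library, the window medians were 0.04 for Notch1, -0.15 for Efna5 and 0.02 for Bace1. The part of local density in the values was not tested further.

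**Figure D5:**
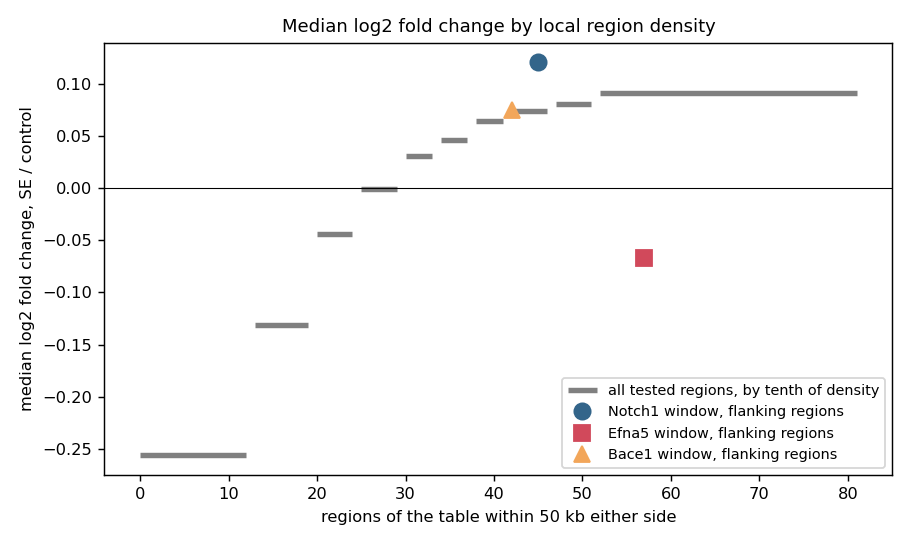
Median log2 fold change (SE over control) against local density, counted in regions up to 50 kb to either side; grey bars are 10 classes of all tested regions by density and symbols are the flanking regions of the 3 windows at their median density. The grey medians rise from -0.26 to 0.09, and the windows lie at 0.12 (Notch1), 0.07 (Bace1) and -0.07 (Efna5).

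In size and level the members lay near the table as a whole. Median lengths were 485 bp near Notch1, 515.5 bp near Efna5 and 494.5 bp near Bace1, against 457 bp in the whole table. Regions of the table covered 26.4%, 36.4% and 22.2% of the windows. Per length, the tested members held a median of 4.70 CPM per kb near Notch1, 4.48 near Efna5 and 4.77 near Bace1, against 4.82 over all tested regions. The highest level per length in the windows was 7.30 CPM per kb at chr8:48898289-48898719 near Bace1, followed by 7.13 at chr9:101550918-101551260 near Efna5 and 6.72 at chr3:4646352-4646800 near Notch1. None of these regions passed the test between the groups (edgeR), with log2 fold changes of -0.14 ± 0.33, -0.20 ± 0.37 and 0.12 ± 0.35 and adjusted p-values of 0.968, 0.956 and 0.972.

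The 186 members below the filter had 8 to 69 tags summed over the 8 libraries, with medians of 55, 50 and 50 tags in the Notch1, Efna5 and Bace1 windows. Of these, every SE rat lay above every control rat in 5 of 60 near Notch1, 1 of 82 near Efna5 and 3 of 44 near Bace1, and below in 1 near Notch1 and 1 near Efna5, as a description without a test. These 11 were 5.91% of the 186, against 3.37% of all regions of the table below the filter. The closest to a listed position was chr3:4647246-4647565, 6.86 kb before that of Notch1, with 1.39 CPM in the mean of the control and 2.42 CPM in the mean of the SE rats. The lowest of all members, chr8:48686806-48687070 near Bace1, held 8 tags in all. In 6 members at least 1 of the 8 libraries held no tag.

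The windows end at a fixed distance, and values just inside and just outside are given as a description. The outermost tested regions inside the windows had log2 fold changes of 0.12 and 0.58 for Notch1, -0.28 and -0.23 for Efna5 and 0.12 and 0.29 for Bace1, before and after the position. The nearest tested regions outside had -0.05 and 0.28, 0.03 and -0.35, and 0.16 and 0.75. In GRCr8 windows of this width would reach beyond each of the genes. The nearest neighbours there are Sec16a and Egfl7 for Notch1 and Cep164 and Rnf214 for Bace1. Efna5 itself spans 278611 bp, less than its window of 300533 bp. The members are therefore regions around the positions and were not assigned to single genes.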

How the data were processed

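Methyl-capture libraries of 10 rats were read from the deposited table of raw tag counts per region. Per the methods, the authors mapped reads to RN4 (BWA), called regions differing in any pair of libraries (MACS), merged them, dropped duplicate tags and counted the rest. The build is taken from the methods. Regions whose count summed over 8 libraries was below the 50th percentile were removed, and 291987 regions were tested two-sided in edgeR 4.0.16 by quasi-likelihood (R 4.3.3, TMM), condition being the only term. The threshold was an unadjusted p of 0.01, with Benjamini-Hochberg adjustment over all tested regions beside it. Standard errors are |log2 fold change| / √F. The common dispersion was 0.0336.

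The members and lists were chosen with earlier results of these data known. Named regions were, per window, that at the position, the nearest 2 on each side, the 2 with the smallest p in each direction, any with p below 0.01, and those with the highest normalized count and the most tags per kb, besides the positions listed for other models. Other genes of the Notch, ephrin and secretase pathways were not placed, as no annotation of RN4 was used, and GRCr8 of RefSeq served only for gene order. Rats of each group were taken as separate animals per the labels. Chi-square per degree of freedom between pairs of libraries was at least 1.32. The table holds only regions called different in some pair, so this value cannot show that the animals were separate. The fit was tested on simulated data. Alternatives were the exact test of edgeR, DESeq2 1.42.0, scaling by library totals, upper quartiles, loess (limma 3.58.1) or density and count offsets, no filter or one of 10 counts per library, all 10 libraries, leaving out each rat, and windows of 50 and 300 kb. The mRNA libraries were not analysed here.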

Additional observations from a re-analysis of the deposited data

Results flagged for a closer look

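Among the named regions, 64 groups of 4 rats were examined for a rat that stood apart, and 5 were found, where chance gives about 1 in 20 groups. In the Notch1 region chr3:4596790-4597569 SE rat 9 had 6.76 CPM and the other SE rats 3.93 to 4.32 CPM. In the Notch1 region chr3:4650522-4652160 control rat 5 had 8.07 CPM and the others 9.39 to 9.57 CPM. In the untested Efna5 region chr9:101472387-101472784 SE rat 8 had 2.64 CPM and the others 1.45 to 1.62 CPM. In the Bace1 region chr8:48741626-48745921 SE rat 6 had 25.2 CPM and the others 18.2 to 19.1 CPM, and in the untested Bace1 region chr8:48756852-48757106 SE rat 10 had 1.34 CPM and the others 0.925 to 0.966 CPM.

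The discarded libraries lay outside the range of the 4 control rats in several values, here scaled over all 10 libraries. Control rat 2 had a Notch1 window sum of 474.1 CPM against 343.5 to 388.8 CPM in the other controls, and a Bace1 window sum of 347.6 CPM against 298.2 to 315.8 CPM. At the Notch1 position it had 19.6 CPM against 7.68 to 9.63 CPM. SE rat 7 had an Efna5 window sum of 645.4 CPM against 441.8 to 495.0 CPM in the controls, 10.0 CPM against 4.81 to 9.18 CPM in the Efna5 region chr9:101417771-101419247, and 4.52 CPM against 2.30 to 3.74 CPM in the Jag2 region. Below the same control ranges lay control rat 2 in the Efna5 window sum, at 359.3 CPM, and SE rat 7 in the Notch1 and Bace1 window sums, at 326.3 and 291.3 CPM.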

How the results depend on the processing

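With all 10 libraries, 2 flanking regions near Notch1, 1 near Efna5 and 0 near Bace1 had p below 0.01, and the window medians turned to -0.046 near Notch1, 0.156 near Efna5 and -0.048 near Bace1. The log2 fold changes also turned to -0.097 in the Notch1 region from 4650522, -0.0011 in that from 4653315, 0.22 in the Efna5 region from 101413103 and 0.22 in that from 101417771. In the main fit 1.65% of all tested regions of the table had p below 0.01, and the share under the other settings is not given here. These small counts are therefore not read as a trait of the windows. The Notch1 count was 2 with library totals, with upper-quartile factors and without a filter. The Efna5 count was 1 with at least 10 counts in every library and 3 within 300 kb, and its median was -0.154 with density and count offsets. The Bace1 count was 0 with the exact test, DESeq2, density and count offsets, at least 10 counts in every library or 50 kb, and 2 without a filter or within 300 kb. The causes were not tested. Leaving out 1 rat at a time gave 0 to 2 calls near Notch1, 2 of them without control rat 4, and 0 to 1 near Efna5, where the call came without SE rat 8. Near Bace1 it gave 0 to 1 calls, 0 without control rats 1, 3 or 5 or SE rats 6 or 10. The Bace1 median ranged from 0.00019, without SE rat 8, to 0.130. Log2 fold changes changed sign in that step in the regions from 4646352 (-0.14 to 0.48), 4657762 (-0.40 to 0.075), 101417771 (-0.19 to 0.11) and 101550918 (-0.38 to 0.014). Of 361 alternative values of 22 tested named regions, those at the listed positions left out, 327 kept direction and side of the threshold, 9 in 6 regions reversed, 10, all of the Bace1 region from 48647297, fell short of the threshold, and 15 passed it. No paired analysis was possible because control and SE rats carry different numbers.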
